A study of Mus musculus with 3 samples.

Results

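A set of 10 genes of the CC chemokine system was followed through mouse nasal mucosa by single-cell RNA sequencing: the eotaxins Ccl11 and Ccl24, the monocyte chemoattractant group Ccl8, Ccl2, Ccl7 and Ccl12, the ligands Ccl5 and Ccl20, and the receptors Ccr3 and Ccr2. They were chosen by name, with earlier results of these data known, so their counts set beside all genes are a description only. All 10 were found among the 55357 genes of each of the 3 libraries. CC chemokines are small secreted proteins that guide leukocytes into tissue through G protein-coupled receptors. Eotaxins act on CCR3, the main chemokine receptor of eosinophils, whereas CCL2, CCL7 and CCL12 act on CCR2 of monocytes and CCL20 acts on CCR6 of lymphocytes and dendritic cells. In allergic airway inflammation, eotaxins from stromal cells and macrophages are known for recruiting eosinophils.

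The first library came from mice given 20 µg papain into the nose and lonidamine at 10 mg/kg into the stomach. The second came from mice given the same papain dose with PBS into the stomach, and the third from mice given PBS into the nose. Papain is a protease allergen used here to model eosinophilic chronic rhinosinusitis, and lonidamine is a small molecule that interferes with glycolysis and pyruvate transport. All mice were C57BL/6J with equal numbers of males and females per group, and tissue from every mouse in a group was mixed before capture in droplets, so that each group is 1 library. The number of mice and the length of treatment are not given in the sources used here.

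With 1 library per group there is no spread between animals, so no test was run and no p-value is given. Each interval below is a 95% interval that covers counting error only. Levels are in CPM, the UMIs of a gene (unique molecular identifiers, each a counted RNA molecule) scaled to the same fixed total of UMIs in every library or gate. A gene is called higher or lower at a ratio of at least 2-fold when the pair of libraries held at least 20 of its UMIs together.

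After filtering, 11887 cells remained for papain with lonidamine, 10524 for papain and 9378 for PBS. They held 84998730 UMIs with papain and lonidamine, 82918339 with papain and 79971740 with PBS. The median UMI count per cell was 5823 with papain and lonidamine, 6547 with papain and 7352.5 with PBS. Pairs of libraries shared 22 to 38 cell barcodes. Cells that carried Xist and no Y-linked RNA made up 83.1% of the sexed cells with papain and lonidamine, 73.2% with papain and 56.8% with PBS, although the groups were described as balanced. Nuclear ribosomal RNA took 3.51% of UMIs with papain and lonidamine, 3.66% with papain and 0.877% with PBS. The papain library carries the name of fibroblasts in its label, yet the fibroblast gate held 4.30% of its cells, against 1.41% in the PBS library, and 12.4% of its cells were mature olfactory neurons.

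Cell types were assigned cell by cell from marker genes, requiring at least 3 detected markers. The macrophage gate held 386 cells with papain and lonidamine, 376 with papain and 361 with PBS, and the fibroblast gate 594 cells with papain and lonidamine, 453 with papain and 132 with PBS. The markers that set each gate were then read in it, which is no independent check of the gate. In every library all 7 macrophage markers and all 8 fibroblast markers were at least 3-fold higher in their gate than in the other cells. The gates of secretory epithelium, sustentacular cells and serous glands met this for only part of their markers, as did the tuft cell gate with papain (6 of 7). Mature olfactory neurons, which should lack these genes, served to show what free RNA gives, with median depths of 6569 UMIs with papain and lonidamine, 7072 with papain and 7488 with PBS.

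The 10 genes divided by cell source. Over the 3 libraries summed, the macrophage gate held 88.3% of the UMIs of Ccl12, 75.9% of Ccl8, 70.6% of Ccl7, 65.2% of Ccl24 and 40.5% of Ccl2. These shares differed by library. The Ccl8 share was 85.6% with papain and lonidamine, 64.0% with papain and 83.2% with PBS, and the Ccl24 share 69.5% with papain and lonidamine, 64.4% with papain and 35.6% with PBS. Ccl11 lay in fibroblasts (51.5% over the libraries) and mural cells, the pericytes and smooth muscle of vessels (20.0%). Its fibroblast share was 39.9% with papain and lonidamine, 58.0% with papain and 83.7% with PBS. With papain and lonidamine, basal epithelium held 30.1% of Ccl11 UMIs and mural cells 18.5%. Ccl20 lay in basal epithelium (77.2%), and Ccl5 in natural killer cells (33.3%) and alpha beta T cells (30.1%). Ccr2 was spread over monocytes (25.0%), macrophages (19.5%), alpha beta T cells (12.5%) and gamma delta T cells (12.1%), and its monocyte share was 15.4% with papain and lonidamine, 11.1% with papain and 45.9% with PBS.

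**Figure D1:**
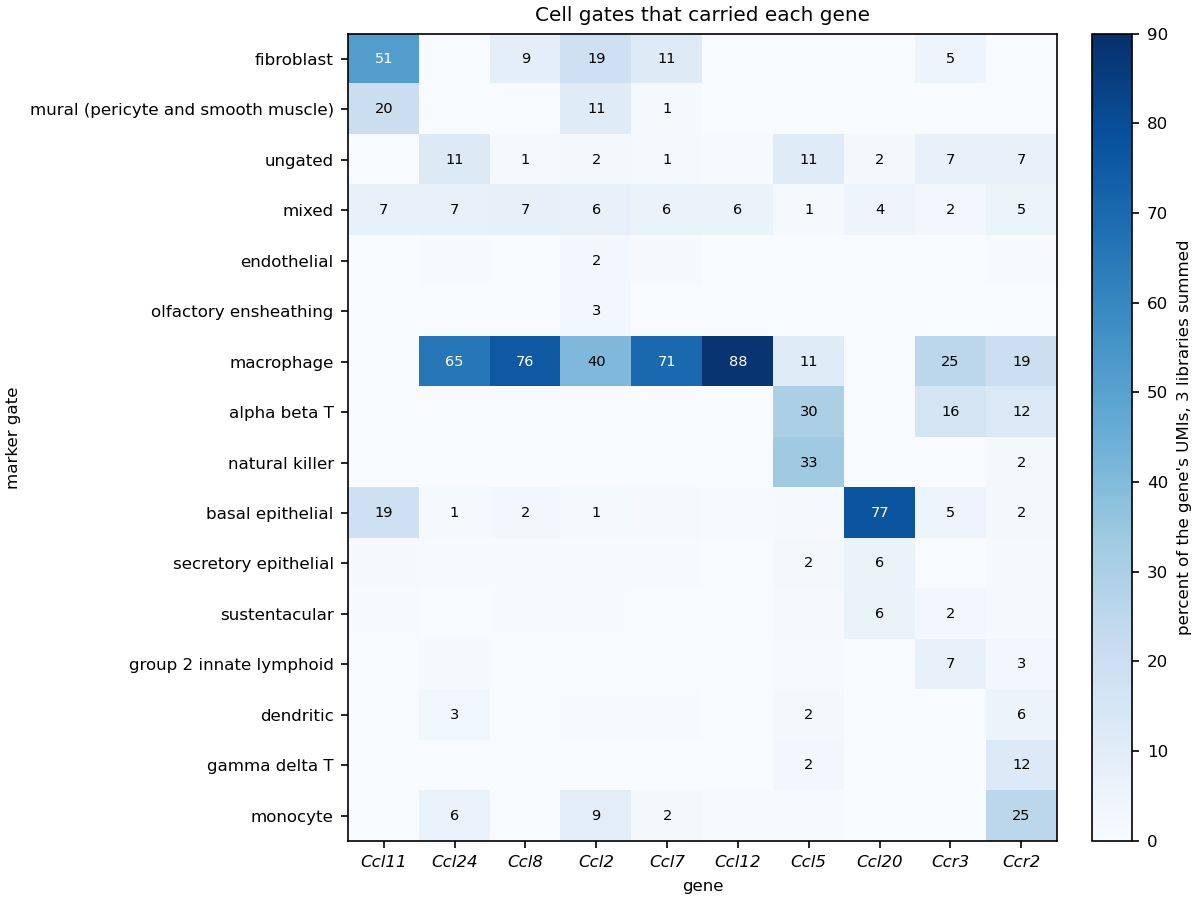
Percent of each gene's UMIs (columns, 3 libraries summed) that fell in each marker gate (rows); printed numbers are rounded percentages of at least 1. The macrophage row holds 88.3% of Ccl12 and 75.9% of Ccl8, the basal epithelial row 77.2% of Ccl20, and the fibroblast row 51.5% of Ccl11.

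In the RefSeq annotation Ccl11, Ccl8, Ccl2, Ccl7, Ccl12 and Ccl5 lie on chromosome 11, Ccl24 on chromosome 5, Ccl20 on chromosome 1, and both receptors on chromosome 9. Promoter sequence was at hand for 5 of the 10 genes. The 3 shown here were picked because they contrast genes treated below: Ccl8 and Ccl12 are neighbours on chromosome 11 that shared the macrophage gate but differed in their papain ratio, and Ccl20 is the epithelial ligand. The 250 bases before each transcription start are from RefSeq, build GRCm38.p6, plus strand, while the counts were made on GRCm39. Capitals mark a match to the NF-kB motif.
Ccl8, chr11:82114935-82115184: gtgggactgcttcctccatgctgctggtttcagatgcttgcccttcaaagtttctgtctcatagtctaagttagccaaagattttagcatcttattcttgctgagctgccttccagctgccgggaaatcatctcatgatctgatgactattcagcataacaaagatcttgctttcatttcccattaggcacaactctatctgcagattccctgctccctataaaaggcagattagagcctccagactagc
Ccl12, chr11:82101595-82101844: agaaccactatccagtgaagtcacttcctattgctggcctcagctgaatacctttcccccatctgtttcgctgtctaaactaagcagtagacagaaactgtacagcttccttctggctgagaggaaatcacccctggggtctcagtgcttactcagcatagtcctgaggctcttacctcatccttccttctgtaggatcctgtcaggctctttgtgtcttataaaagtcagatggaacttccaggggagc
Ccl20, chr1:83116516-83116765: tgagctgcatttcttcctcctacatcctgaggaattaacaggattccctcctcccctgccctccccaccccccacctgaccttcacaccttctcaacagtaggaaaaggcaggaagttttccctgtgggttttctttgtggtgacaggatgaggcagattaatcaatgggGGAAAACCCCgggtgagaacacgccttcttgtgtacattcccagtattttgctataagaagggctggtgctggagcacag
Both strands were searched for the NF-kB motif, the STAT6 motif (TTC and GAA parted by any 4 bases), the AP-1 motif TGANTCA and the interferon response motif (GAAA repeated after any 2 bases). Of these, the Ccl20 window held 1 NF-kB match, beginning at position -80 from the start, and the Ccl8 and Ccl12 windows held none of the 4. Among 32851 promoters of the same length, 7.25% held the NF-kB motif, 5.85% the STAT6 motif, 6.75% the AP-1 motif and 2.98% the interferon motif. A match describes letters and not a bound site.

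Over all cells, papain against PBS gave 3 of the 9 genes with enough UMIs as higher and 1 as lower, against 10.2% of 22862 genes higher and 5.92% lower. Ccl24, Ccl8 and Ccl11 were the higher genes and Ccl5 the lower one. The median log2 ratio of the 9 genes was -0.00076 and that of all genes -0.02. Papain with lonidamine against papain gave 0 higher and 0 lower of 10, where 2.9% of 22947 genes were higher and 2.08% lower. The comparisons share the papain library.

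**Figure D2:**
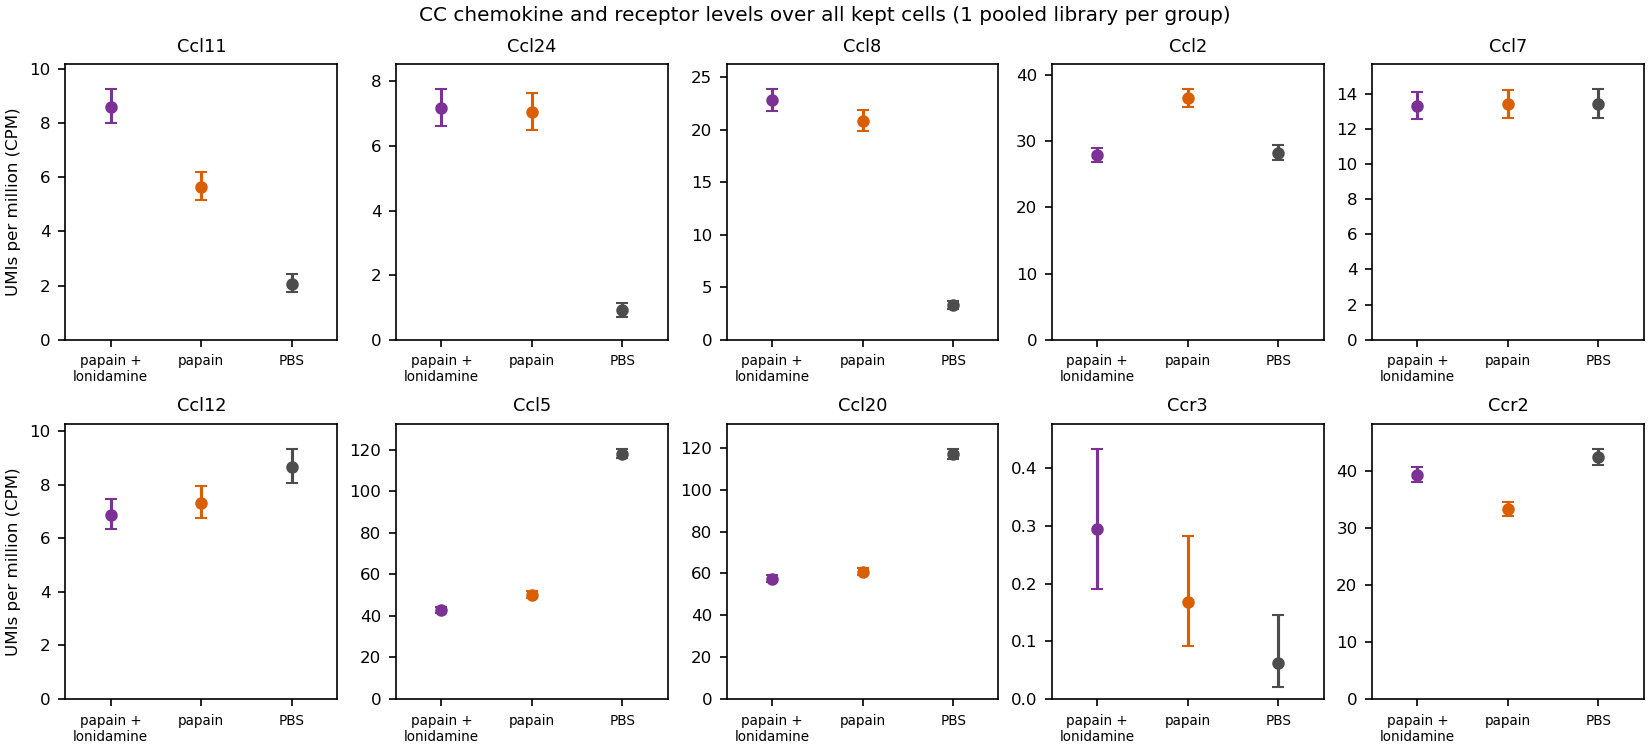
CPM of each of the 10 genes over all kept cells in the 3 libraries (points), with 95% Poisson intervals from counting error (bars); 1 pooled library per group. Ccl24 and Ccl8 stood at 7.06 and 20.9 CPM with papain, against 0.913 and 3.28 CPM with PBS. Ccl5 was lower with papain, and Ccl20 had a log2 ratio of -0.95, inside the 2-fold limit.

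Ccl24 (ENSMUSG00000004814), eotaxin-2, was the gene with the largest papain ratio. It had 609 UMIs in 161 cells with papain and lonidamine, 585 UMIs in 146 cells with papain and 73 UMIs in 25 cells with PBS. The papain libraries lay together, far above PBS, where the top 10 cells held 79.5% of the UMIs. The ratio of papain over PBS was 7.68-fold (log2 2.94, interval 2.60 to 3.32), and that of papain with lonidamine over papain was 1.02-fold (log2 0.02, -0.14 to 0.19).

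Within macrophages Ccl24 stood at 259 CPM with papain and lonidamine, 214 CPM with papain and 9.57 CPM with PBS. The papain over PBS log2 ratio was 4.46 (3.91 to 5.12), and that of papain with lonidamine over papain was 0.28 (0.07 to 0.48). Ccl24 was seen in 21.5% of macrophages with papain and lonidamine, 21.3% with papain and 3.32% with PBS, and in 14.6% with papain and lonidamine, 14.8% with papain and 1.80% with PBS once every cell was thinned to 1500 UMIs. In mature olfactory neurons it was seen in 0.0714% of cells with papain and lonidamine, 0.154% with papain and 0% with PBS. In the PBS library 43 of the 73 UMIs lay in monocytes, 32 of them in a single cell.

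Ccl8 (ENSMUSG00000009185), a ligand of CCR8 in the mouse, stood in a like order over all cells. It had 1940 UMIs with papain and lonidamine, 1729 with papain and 262 with PBS. These lay in 249 cells with papain and lonidamine, 247 with papain and 60 with PBS. The papain over PBS ratio was 6.35-fold (log2 2.67, 2.48 to 2.86) and that of papain with lonidamine over papain 1.09-fold (log2 0.13, 0.04 to 0.22). Ccl8 was also present in olfactory neurons, in 0.999% of cells with papain and lonidamine, 1.08% with papain and 0.177% with PBS.

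In macrophages Ccl8 reached 1018 CPM with papain and lonidamine, 628 CPM with papain and 80.2 CPM with PBS. The log2 ratio was 2.97 (2.76 to 3.19) for papain over PBS and 0.70 (0.59 to 0.81) for papain with lonidamine over papain. Ccl8 was seen in 21.5% of macrophages with papain and lonidamine, 22.3% with papain and 11.4% with PBS. Each positive macrophage held 20.0 UMIs on average with papain and lonidamine, 13.2 with papain and 5.32 with PBS. Cells set aside as mixed held 38 Ccl8 UMIs with papain and lonidamine, 248 with papain (138 in 1 cell) and 0 with PBS. In fibroblasts the 3 levels were 34.1 CPM with papain and lonidamine, 78.0 CPM with papain and 29.9 CPM with PBS, so that papain stood above both other libraries: log2 1.36 (0.84 to 1.98) over PBS, and -1.19 (-1.54 to -0.85) for papain with lonidamine over papain. Macrophage markers summed to 21.9 CPM with papain and lonidamine, 29.4 CPM with papain and 23.1 CPM with PBS in the fibroblast gate, under 0.3% of their level in macrophages.

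Most macrophages with a Ccl8 UMI had none of Ccl24. Among macrophages thinned to 1500 UMIs, 13 of the 52 Ccl8-positive cells with papain and lonidamine also had Ccl24, as did 8 of 44 with papain and 1 of 16 with PBS. By comparison Ccl24 was seen in 14.6% of all thinned macrophages with papain and lonidamine, 14.8% with papain and 1.80% with PBS. The share among Ccl8-positive cells was 25.0% with papain and lonidamine, 18.2% with papain and 6.25% with PBS.

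Ccl11 (ENSMUSG00000020676), eotaxin-1, had 731 UMIs with papain and lonidamine, 469 with papain and 166 with PBS, in 162 cells with papain and lonidamine, 131 with papain and 39 with PBS. The log2 ratio was 1.44 (1.19 to 1.71) for papain over PBS and 0.60 (0.44 to 0.77) for papain with lonidamine over papain. The level per fibroblast did not follow: it was 94.0 CPM with papain and lonidamine, 98.7 CPM with papain and 134 CPM with PBS, a papain over PBS log2 ratio of -0.44 (-0.74 to -0.14). Fibroblasts were more numerous after papain, as given above.

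In mural cells Ccl11 was higher with papain, at 80.3 CPM with papain and lonidamine, 56.8 CPM with papain and 18.3 CPM with PBS, a papain over PBS log2 ratio of 1.61 (0.98 to 2.35). The 8 fibroblast markers moved with it in that gate: they summed to 2389 CPM with papain and lonidamine, 2016 CPM with papain and 555 CPM with PBS, with Lum at 0 with papain, and Lum, Pdgfra and Dpt at 0 with PBS. Their part in the mural result was not tested. Ccl11 was near absent from olfactory neurons, with 0 positive cells with papain and lonidamine, 0 with papain and 1 with PBS.

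A further 220 Ccl11 UMIs of the library with papain and lonidamine lay in 14 basal epithelial cells, against 38 UMIs in 12 cells with papain and 0 with PBS. The top 3 of those 14 cells held 187 of the 220 UMIs, and 1 held 127. All 14 also carried Krt5, a basal keratin that is itself a marker of this gate, and 3 carried Col1a1, a fibroblast collagen. Without the top cell of each library the all-cell log2 ratio of papain with lonidamine over papain was 0.39 (0.21 to 0.57).

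Ccl2 (ENSMUSG00000035385), the main CCR2 ligand, had 2372 UMIs with papain and lonidamine, 3029 with papain and 2262 with PBS. The all-cell log2 ratios were small, 0.37 (0.29 to 0.45) for papain over PBS and -0.39 (-0.47 to -0.31) for papain with lonidamine over papain. Under this lay differences between cell types. In fibroblasts Ccl2 stood at 177 CPM with papain and lonidamine, 273 CPM with papain and 132 CPM with PBS, a log2 ratio of 1.04 (0.78 to 1.32) for papain over PBS and -0.63 (-0.79 to -0.47) for papain with lonidamine over papain.

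Mural cells showed the same order for Ccl2, with 136 CPM with papain and lonidamine, 216 CPM with papain and 133 CPM with PBS. Macrophages held 642 CPM with papain and lonidamine, 599 CPM with papain and 369 CPM with PBS, a log2 ratio of 0.10 (-0.02 to 0.23) for papain with lonidamine over papain. Monocytes went the other way, with 66.1 CPM with papain and lonidamine, 128 CPM with papain and 324 CPM with PBS, a papain over PBS log2 ratio of -1.33 (-1.85 to -0.88). Those monocytes numbered 111 cells with papain and lonidamine, 68 with papain and 324 with PBS. Olfactory ensheathing glia held 66.7 CPM with papain and lonidamine against 224 CPM with papain, a log2 ratio of -1.73 (-2.33 to -1.20), and only 22 such cells came from PBS.

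Ccl7 (ENSMUSG00000035373), which binds CCR2 and CCR3, was level over all cells with 1131 UMIs with papain and lonidamine, 1113 with papain and 1074 with PBS. Fibroblasts differed, with 186 UMIs with papain and lonidamine, 176 with papain and 5 with PBS. Ccl7 levels there were 59.9 CPM with papain and lonidamine, 63.9 CPM with papain and 4.82 CPM with PBS, a papain over PBS log2 ratio of 3.59 (2.48 to 5.37). In macrophages the levels were 454 CPM with papain and lonidamine, 397 CPM with papain and 332 CPM with PBS, and the papain over PBS log2 ratio was 0.26 (0.11 to 0.40).

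Ccl12 (ENSMUSG00000035352), the mouse relative of CCL2, had 585 UMIs with papain and lonidamine, 608 with papain and 694 with PBS. Within macrophages its levels were 329 CPM with papain and lonidamine, 296 CPM with papain and 224 CPM with PBS, a papain over PBS log2 ratio of 0.41 (0.23 to 0.58). In the same cells its neighbour Ccl8 had a papain over PBS log2 ratio of 2.97.

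Taking macrophages as a whole, 4 of 8 counted genes were higher with papain than with PBS and 0 were lower, where 6.79% of genes in that gate were higher and 8.29% lower. The 4 were Ccl24, Ccl8, Ccl5 and Ccr2. In fibroblasts 5 of 6 were higher and 0 lower, against 7.69% and 6.89% of genes. The 5 were Ccl7, Ccl8, Ccl5, Ccl20 and Ccl2, of which Ccl5 and Ccl20 rested on 21 and 36 UMIs with papain, against 3 and 6 with PBS, and had intervals that reached below 0. For papain with lonidamine over papain, 0 of 7 were higher and 0 lower in macrophages (2.9% and 1.41% of genes), and 0 of 6 were higher and 2 lower in fibroblasts (3.11% and 1.91% of genes), the 2 being Ccl8 and Ccl20.

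Over all gates with at least 50 cells in both libraries, 28 of 62 gene and gate pairs were higher with papain than with PBS and 14 lower, against 7.68% and 5.37% of all such pairs. For papain with lonidamine over papain, 11 of 79 were higher and 21 lower, against 3.03% and 2.32%. Pairs of 1 gene share cells and free RNA and are not independent. With the single highest cell of each gate and library removed, the counts were 16 higher and 10 lower of 47 for papain over PBS, and 5 higher and 8 lower of 56 for papain with lonidamine over papain. The share of all pairs called was not computed without those cells.

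**Figure D3:**
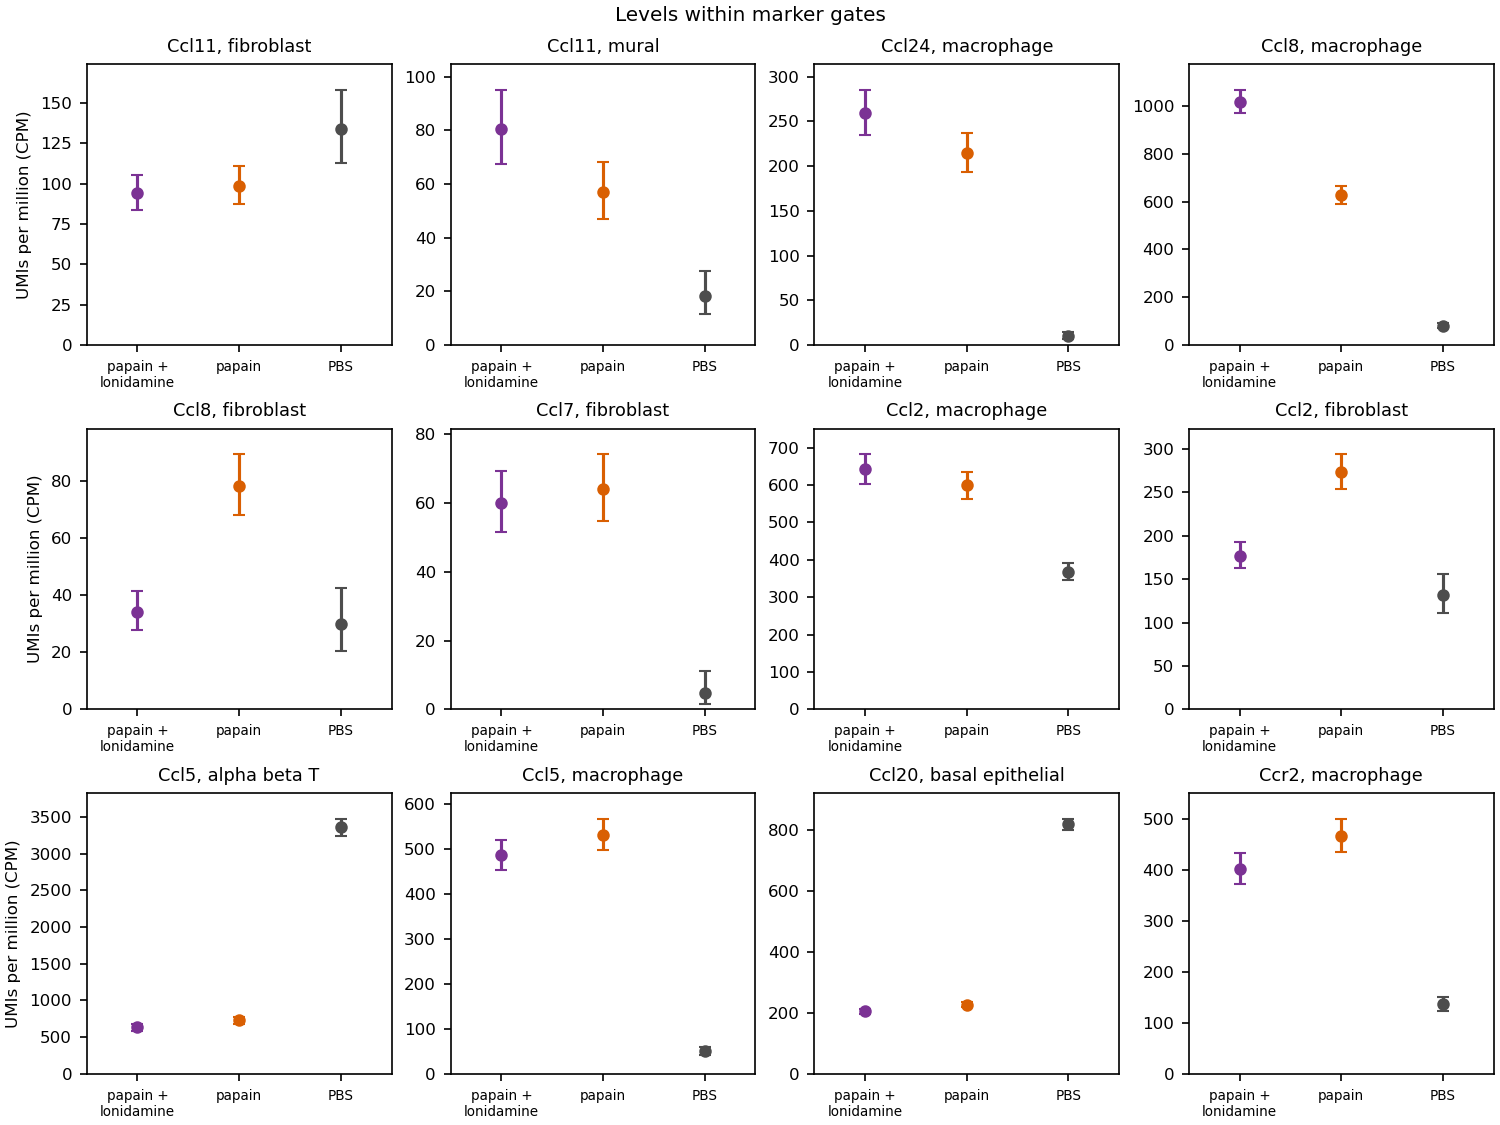
CPM within marker gates for 12 gene and gate pairs in the 3 libraries (points) with 95% Poisson intervals (bars), each axis from 0. Ccl24 and Ccl8 in macrophages and Ccl7 in fibroblasts were near the axis with PBS, whereas Ccl5 in alpha beta T cells and Ccl20 in basal epithelium were highest with PBS.

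Ccl5 (ENSMUSG00000035042), a ligand of CCR1 and CCR3 made by cytotoxic lymphocytes, was the gene lower with papain. It had 3629 UMIs with papain and lonidamine, 4170 with papain and 9460 with PBS, a papain over PBS log2 ratio of -1.23 (-1.29 to -1.18). In alpha beta T cells the levels were 633 CPM with papain and lonidamine, 731 CPM with papain and 3357 CPM with PBS, and the log2 ratio was -2.20 (-2.30 to -2.10). Natural killer markers in that gate summed to 77.2 CPM with papain and lonidamine, 158 CPM with papain and 313 CPM with PBS, moving with Ccl5, and their part in it was not tested.

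Natural killer cells held 989 Ccl5 UMIs in 67 cells with papain and lonidamine, 942 UMIs in 45 cells with papain and 3823 UMIs in 67 cells with PBS. No ratio was formed with so few papain cells. Macrophages ran against the lymphocytes, with 486 CPM with papain and lonidamine, 532 CPM with papain and 50.8 CPM with PBS, a papain over PBS log2 ratio of 3.38 (3.13 to 3.66). T cell markers in macrophages were lower with papain, at 11.6 CPM with papain and lonidamine, 7.38 CPM with papain and 21.0 CPM with PBS. Natural killer markers there had 0 UMIs with papain and lonidamine, 12 with papain and 9 with PBS. The gate held 1630932 UMIs in all with papain and lonidamine, 1760636 with papain and 2717924 with PBS. Set against these totals, the natural killer marker count was higher with papain than with PBS. It rests on few UMIs, and no interval was computed for it. The part of either marker set in the macrophage ratio was not tested. Ccl5 was seen in 22.5% of macrophages with papain and lonidamine, 29.3% with papain and 11.1% with PBS, and in 0.785% of olfactory neurons with papain and lonidamine, 0.846% with papain and 2.12% with PBS.

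Ccl20 (ENSMUSG00000026166) had 4890 UMIs with papain and lonidamine, 5049 with papain and 9384 with PBS, a papain over PBS log2 ratio of -0.95 (-0.996 to -0.90), just inside the 2-fold limit. In basal epithelium the levels were 205 CPM with papain and lonidamine, 227 CPM with papain and 817 CPM with PBS, a log2 ratio of -1.85 (-1.91 to -1.79). Basal cells of the libraries lay in different clusters, the most frequent being cluster 1 with papain and lonidamine (48.5%) and papain (47.1%), and cluster 12 with PBS (48.4%). In cluster 1 basal cells held 33.3 CPM with papain and lonidamine, 42.3 CPM with papain and 40.03 CPM with PBS. In cluster 5 they held 606 CPM with papain and lonidamine, 474 CPM with papain and 876 CPM with PBS, and in cluster 12 they held 515 CPM with papain and lonidamine, 670 CPM with papain and 1394 CPM with PBS. Sustentacular cells gave -2.87 (-3.10 to -2.65), where a single PBS cell held 465 of 589 UMIs. Secretory epithelium, whose most frequent cluster was 20 with papain and 21 with PBS, gave 1.998 (1.63 to 2.40), with basal markers in that gate at 574 CPM with papain and lonidamine, 606 CPM with papain and 280 CPM with PBS.

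The Ccl20 ratio differed in sign between male and female cells, a difference that was not tested. Male basal cells held 113 CPM with papain and lonidamine, 140 CPM with papain and 1589 CPM with PBS, and female basal cells 216 CPM with papain and lonidamine, 257 CPM with papain and 209 CPM with PBS. The papain over PBS log2 ratio was -3.50 in male cells and 0.30 in female cells. Basal cells of unclear sex, left out of this split, held 174 CPM with papain and lonidamine, 263 CPM with papain and 1042 CPM with PBS. They numbered 190 with papain and lonidamine, 357 with papain and 214 with PBS. With PBS, 159 of 290 male basal cells had Ccl20. Within the single cluster that held the largest share of PBS basal cells, a split made after the data had been seen, male cells had 200 CPM with papain and lonidamine, 382 CPM with papain and 2033 CPM with PBS and female cells 610 CPM with papain and lonidamine, 907 CPM with papain and 574 CPM with PBS.

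Levels of the macrophage genes also differed between cells called female and male. Ccl8 in female macrophages stood at 1250 CPM with papain and lonidamine, 706 CPM with papain and 46.6 CPM with PBS, and in male macrophages at 27.0 CPM with papain and lonidamine, 128 CPM with papain and 76.7 CPM with PBS. Ccl24 stood at 293 CPM with papain and lonidamine, 267 CPM with papain and 4.23 CPM with PBS in female macrophages and 4.50 CPM with papain and lonidamine, 71.1 CPM with papain and 14.3 CPM with PBS in male ones. The male macrophages numbered 43 with papain and lonidamine, 65 with papain and 133 with PBS. In cells of either sex Ccl24 was higher with papain than with PBS. The papain over PBS log2 ratio of Ccl8 in male macrophages was 0.75 (0.21 to 1.27), where 1 PBS cell held 57 of the 91 UMIs. Several of these levels rest on few UMIs. With papain and lonidamine, male macrophages had 1 UMI of Ccl24 and 6 of Ccl8, and female PBS macrophages had 4 of Ccl24. Sex, animal and library cannot be told apart here, since the animals were pooled.

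**Figure D4:**
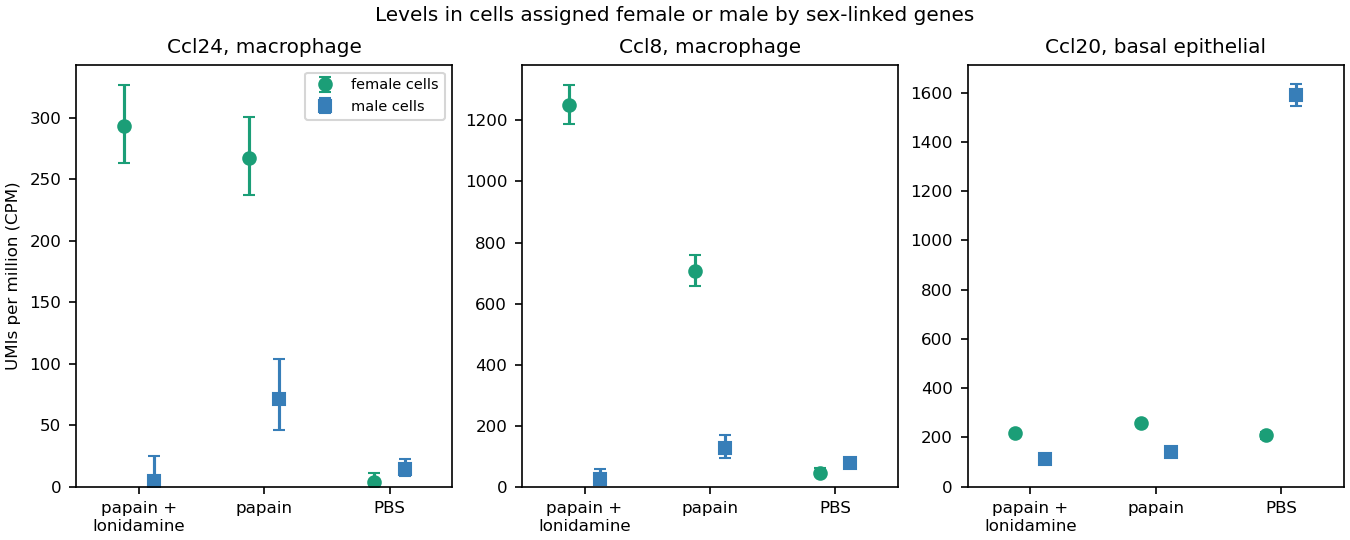
CPM of Ccl24 and Ccl8 in macrophages and Ccl20 in basal epithelium, in cells assigned female (circles) or male (squares) from sex-linked genes, with 95% Poisson intervals. Ccl20 reached 1589 CPM in male PBS cells, and Ccl24 and Ccl8 were highest in female cells of the papain libraries.

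Ccr3 (ENSMUSG00000035448) was close to undetected. It had 25 UMIs in 21 cells with papain and lonidamine, 14 in 11 cells with papain and 5 in 4 cells with PBS. The cells were scattered over gates, 7 of the UMIs with papain and lonidamine being in macrophages and 5 in alpha beta T cells. The log2 ratio of papain with lonidamine over papain was 0.78 with an interval of -0.20 to 1.86.

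No cell fell in the eosinophil gate of any library, which allows shares of gated cells of up to 0.0252% with papain and lonidamine, 0.0285% with papain and 0.0320% with PBS. Outside the gate, 0 cells with papain and lonidamine, 0 with papain and 2 with PBS carried at least 3 of the 8 eosinophil markers, and 9 with papain and lonidamine, 3 with papain and 7 with PBS carried at least 2. Among the barcodes removed by the filters, 10 with papain and lonidamine, 10 with papain and 4 with PBS had Siglecf. The eosinophil peroxidase gene Epx had 1 UMI with papain and lonidamine, 2 with papain and 8 with PBS, and 63.6% of these, like 40.7% of the UMIs of the granule protein gene Prg2, lay in cells set aside as mixed. Siglecf had 353 UMIs with papain and lonidamine, 460 with papain and 216 with PBS, of which 81.3% with papain and lonidamine, 81.1% with papain and 80.6% with PBS lay in the neutrophil gate. No eosinophil level could be set beside the eotaxin values.

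Ccr2 (ENSMUSG00000049103), the receptor of inflammatory monocytes, had 3347 UMIs with papain and lonidamine, 2763 with papain and 3404 with PBS, a papain over PBS log2 ratio of -0.35 (-0.43 to -0.28). Monocytes held the largest share of its UMIs, and Ccr2 was seen in 92.8% of them with papain and lonidamine, 88.2% with papain and 87.7% with PBS. Macrophages held 402 CPM with papain and lonidamine, 467 CPM with papain and 137 CPM with PBS, a papain over PBS log2 ratio of 1.77 (1.59 to 1.95), and monocyte markers in that gate were at 659 CPM with papain and lonidamine, 622 CPM with papain and 401 CPM with PBS. Their part in the macrophage ratio was not tested.

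Gamma delta T cells held Ccr2 at 1075 CPM with papain and lonidamine, 1002 CPM with papain and 536 CPM with PBS, and alpha beta T cells at 316 CPM with papain and lonidamine, 386 CPM with papain and 224 CPM with PBS. The papain over PBS log2 ratios were 0.90 (0.69 to 1.12) in gamma delta T cells and 0.78 (0.56 to 1.02) in alpha beta T cells. Dendritic cells held 397 CPM with papain and lonidamine against 182 CPM with papain, a log2 ratio of 1.12 (0.79 to 1.48).

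Cell numbers and levels within cells were set apart by giving each gate its PBS level and the papain library's gate make-up. Gates with few PBS cells were included. Ccl11 computed this way was 4.94 CPM, near the 5.66 CPM observed with papain and above the 2.08 CPM of PBS. Its levels within gates still differed. Fibroblasts held 98.7 CPM with papain against 134 CPM with PBS, and mural cells 56.8 CPM with papain against 18.3 CPM with PBS. These differences ran in opposite directions, and a sum over gates does not show them. Ccl24 was 0.387 CPM where 7.06 CPM was observed, and Ccl8 2.86 CPM where 20.9 CPM was observed. Ccl20 was 189 CPM where 60.9 CPM was observed, and Ccl5 107 CPM where 50.3 CPM was observed.

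**Figure D5:**
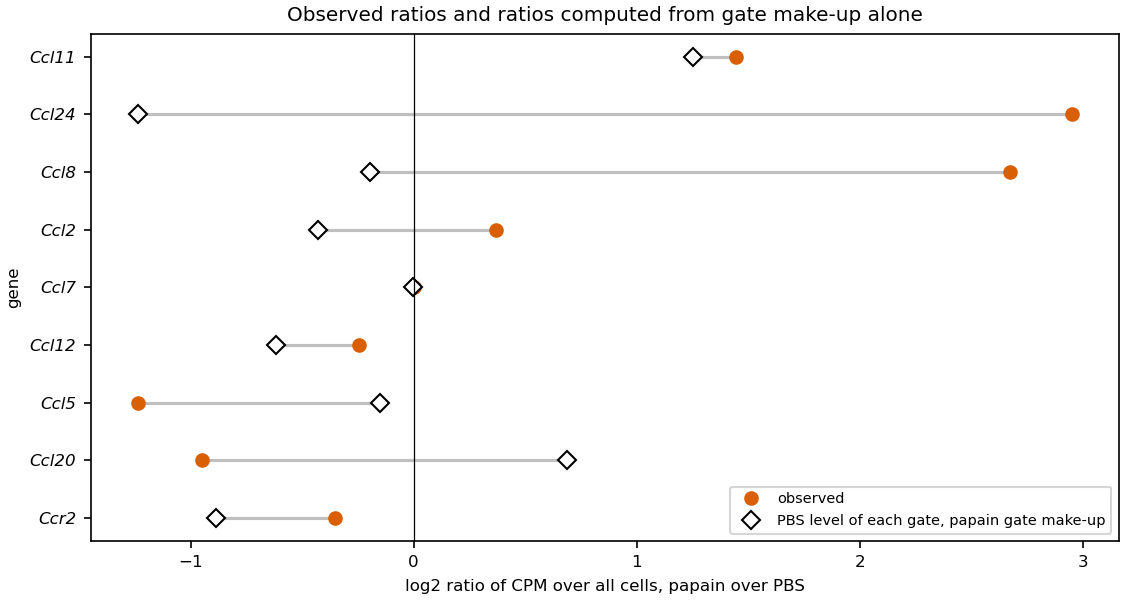
Log2 ratio of CPM over all cells, papain over PBS, for 9 genes: observed (filled circles) and computed from PBS gate levels with the papain gate make-up (open diamonds). The symbols lie close for Ccl11 and Ccl7 and far apart for Ccl24, Ccl8 and Ccl20. The Ccl7 diamond uses a PBS level of 209 CPM for the Alox12e epithelial gate, from 1 UMI in its 1 PBS cell. That gate held 2.28% of papain UMIs, so the place of the Ccl7 diamond depends on this UMI. For Ccl11, levels within fibroblasts and mural cells differed in opposite directions.

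The other CC genes were read the same way. Of 13 other ligands, 12 had enough UMIs, and 3 were higher and 2 lower with papain than with PBS, with a median log2 ratio of -0.31. Higher were Ccl19 (log2 2.60), a CCR7 ligand of stromal cells, Ccl1 (2.45), a CCR8 ligand, and Ccl28 (1.94), a mucosal epithelial ligand. Lower were Ccl21a (-2.08), the lymphatic CCR7 ligand, and Ccl6 (-1.74). Within 2-fold were Ccl22 (0.80), Ccl4 (0.0048), Ccl3 (-0.12), Ccl17 (-0.50), Ccl9 (-0.57), Ccl25 (-0.58) and Ccl27a (-0.63). Ccl26 had 0 UMIs.

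Of 13 other receptors, 3 were higher and 0 lower, with a median of 0.08: Ccr4 (1.35) and Ccr8 (1.31), receptors of type 2 and regulatory T cells, and Ccr9 (1.20). Those within 2-fold included Ccr6 (0.48), Ackr3 (0.33), Ackr1 (0.08), Ccrl2 (0.04), Ackr4 (-0.0040), Ccr1 (-0.08), Ccr10 (-0.14) and Ccr7 (-0.41). With papain and lonidamine against papain, 1 ligand, Ccl21a (1.30), was higher and no other ligand or receptor was called. The partner of Ccl20, Ccr6, had 240 UMIs with papain and lonidamine, 214 with papain and 148 with PBS.

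Across 65 pairs of gate and library, the genes whose level ran most like a member's were given by Pearson's r of log2(CPM + 10), as a description of points that share libraries. For Ccl11 they were Twist1 (0.97), Gpr176 and Srpx (0.96 each). For Ccl24 they were Mrc1 and Gm48065 (0.89 each) and Spic (0.86), and for Ccl12 C1qc (0.99), C1qa and Ms4a14 (0.98 each). Ccl7 and Ccl8 were each other's nearest gene (0.90), followed for both by G530011O06Rik, and then by Igf1 for Ccl8 (0.87) and Pf4 for Ccl7 (0.88). For Ccl2 the genes were Cmtm3 (0.86), Axl and Lrp1 (0.85 each), and for Ccl5 Ms4a4b (0.86), Gbp8 (0.85) and Dok2 (0.84). For Ccl20 they were Mpzl2 (0.85) and Fgfbp1 (0.84), and for Ccr2 Cd48, Zfp268 (0.92 each) and Runx3 (0.91). Mrc1, C1qa and C1qc are macrophage gate markers.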

How the data were processed

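The 3 libraries were made with 10x Genomics 3′ single-cell chemistry from pooled nasal mucosa, per the labels' protocols. The deposited values are raw UMI counts per gene and barcode. The file headers name Cell Ranger 7.1.0, whereas the submitters' processing notes name Cell Ranger 2.1.1 and GRCm39. The 10 genes, the marker lists and the other gene lists were chosen with earlier results of these data known.

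Barcodes needed 500 or more UMIs, 200 or more genes and a mitochondrial share of 20% or less. Doublets called by Scrublet in scanpy 1.11.5 (262 with papain and lonidamine, 188 with papain and 137 with PBS) were removed. Each cell went to 1 of 29 marker gates when at least 3 markers were detected. A cell was set aside as mixed when a gate of another lineage scored over 75% of the top score, and as ungated when no gate was met. Clusters (leidenalg 0.10.2, 38 clusters, the 10 genes left out) served as an alternative. Summed counts gave CPM with Poisson intervals, and log2 ratios used 0.5 added counts with conditional binomial intervals. Shares of cells have Clopper-Pearson limits, and a count of 0 allows 3 counts. The ratio was tried on simulated Poisson counts with known folds. Those counts lack the uneven spread between cells seen here, so the trial cannot show how the intervals hold in these data. PCR and capture errors are not covered by any interval. By rule, all 10 genes are named, with every other CC gene of at least 100 UMIs over the libraries and, for each of the 10 with at least 200 UMIs, the 3 most alike genes; Ccr8 and Ccl26, with fewer UMIs, were named after their values were seen. A receptor and a most alike gene that this rule names are not reported here.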

Additional observations from a re-analysis of the deposited data

Results flagged for a closer look

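Each value below is a log2 ratio whose counting interval excludes 0 and whose direction is opposite in the other sex or another gate. None of these differences was tested, because each group is 1 library. Gates had to hold at least 5% of the gene's UMIs.

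Between the sexes, papain over PBS gave opposite signs for 3 genes over all cells. Ccl20 was 0.88 in female and -2.17 in male cells, Ccl7 was 0.26 in female and -0.52 in male cells, and Ccl12 was 0.27 in female and -0.40 in male cells. Within basal epithelium Ccl20 was 0.30 in female and -3.50 in male cells. For papain with lonidamine over papain, Ccl20 was 0.078 in female and -1.27 in male cells, Ccl8 was 0.16 in female and -1.30 in male cells, and Ccl2 in fibroblasts was -0.997 in female and 0.90 in male cells.

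Between gates, papain over PBS gave -0.44 for Ccl11 in fibroblasts and 1.61 in mural cells. Ccl2 was 1.04 in fibroblasts, 0.70 in macrophages and 0.70 in mural cells, against -1.33 in monocytes. Ccl5 was -2.20 in alpha beta T cells and 3.38 in macrophages. Ccl20 was -1.85 in basal epithelium and -2.87 in sustentacular cells, against 1.998 in secretory epithelium. A single PBS cell held most of the sustentacular Ccl20 UMIs, as given above. The most frequent cluster of basal cells was 1 with papain and 12 with PBS. In cluster 1 the Ccl20 level of basal cells was 42.3 CPM with papain and 40.03 CPM with PBS. It was 474 CPM with papain and 876 CPM with PBS in cluster 5, and 670 CPM with papain and 1394 CPM with PBS in cluster 12. For papain with lonidamine over papain, Ccl8 was -1.19 in fibroblasts and 0.70 in macrophages. Ccr2 was -0.29 in alpha beta T cells and -0.22 in macrophages, against 1.12 in dendritic cells.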

How the results depend on the processing

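Over all cells, the counts of genes at least 2-fold higher or lower moved in few settings. For papain with lonidamine over papain, 1 gene was higher with the mean of per-cell values and 1 without the top cell of each library, and male cells alone gave 3 lower. For papain over PBS, male cells alone gave 2 lower. Within gates, female cells alone gave 15 higher and 6 lower of 33 for papain over PBS, and 12 lower for papain with lonidamine over papain. Male cells alone gave 7 higher and 8 lower of 21, and 1 higher and 3 lower of 8. Without the top cell of each gate and library, 16 were higher and 10 lower of 47 for papain over PBS, and 5 higher and 8 lower for papain with lonidamine over papain. Fewer pairs reach 20 UMIs in these subsets. The share of all genes called was not computed for these settings, so their counts cannot be set against it. The Ccl20 ratio of papain over PBS in basal epithelium reversed to 0.30 in female cells alone. The top-cell setting and male cells within gates were chosen after seeing the data. Of the log2 ratios of single genes, those beyond the counting interval of the value reported were 29 of 55 with the mean of per-cell values, 9 of 32 with named clusters, 10 of 55 without the top cell, 27 of 52 in female and 29 of 32 in male cells, 2 of 19 without ribosomal and mitochondrial RNA, 1 of 55 with doublets kept and 0 of 55 with a mitochondrial limit of 10%. So were 32 of 63 shares of positive cells when cells were thinned to 3000 UMIs. No paired analysis was possible because each group is 1 pooled library. Depth limits Ccr3 most, with 5 to 25 UMIs per library.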

Other observations

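The cell sources of 4 other CC ligands were as follows. Ccl1 had 164 UMIs with papain and lonidamine, 138 with papain and 24 with PBS, and 69.0% of its UMIs lay in the gate of group 2 innate lymphoid cells, the tissue source of interleukin 5 and interleukin 13. Ccl19 had 457 UMIs with papain and lonidamine, 677 with papain and 107 with PBS, split between mural cells (43.2%) and fibroblasts (42.7%). Ccl28 had 1991 UMIs with papain and lonidamine, 2294 with papain and 576 with PBS, mainly in secretory epithelium (32.3%) and sustentacular cells (24.8%). Ccl21a, found in lymphatic endothelium (53.6%) and endothelium (34.8%), had 1863 UMIs with papain and lonidamine, 738 with papain and 3019 with PBS.

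A list of 14 genes of the tissue dissociation response was read beside the chemokines. Over all cells 4 were higher and 0 lower with papain than with PBS (median log2 0.51), in fibroblasts 5 were higher and 0 lower (0.57), and in macrophages 1 was higher and 3 lower (-0.14). Its part in the fibroblast ratios of Ccl2, Ccl7 and Ccl8 was not tested.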
